A study of Mus musculus with 6 samples.

Results

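The type I interferon response genes described here are 36 genes that cells switch on when interferon alpha or beta binds its receptor, followed in the mouse cochlea. The genes were listed by symbol as known interferon-stimulated genes, and the list was selected on the same genotype difference that is described here, with the values of these 6 samples already known. The differences between genotypes are therefore given as a description, and no test over the list is made. All 36 symbols were found among the 51802 gene symbols in the files, and all 36 were among the 17136 genes with enough counts to be tested.

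Bulk RNA was sequenced from cochleae of mice at 2 months of age, from 3 wildtype and 3 *Pou4f3(Δ/+)* samples. Both genotypes were on the C57BL/6J background (C57/BL6J in the labels), which carries the *Cdh23(ahl)* hearing loss allele, and were kept specific pathogen-free. *Pou4f3(Δ/+)* mice are heterozygous for a knock-in allele of *Pou4f3*, a transcription factor of hair cells, in which a small deletion truncates the protein in every cell that expresses the gene, and the allele was made by gene targeting in embryonic stem cells with a floxed selection cassette. The comparison asked how one mutant copy of *Pou4f3* changes cochlear gene expression when hearing loss is still mild. The labels number the wildtype samples 3, 4 and 5 and the *Pou4f3(Δ/+)* samples 1, 2 and 3, and values are given in that order throughout. They do not say that each sample came from a separate animal, so p-values measure the spread between these samples, which may be partly technical.

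Type I interferons signal through the receptor Ifnar1/Ifnar2 and the kinases Jak1 and Tyk2 to Stat2 and Irf9, which are part of a factor that binds the interferon-stimulated response element in the promoters of target genes. The targets hold RNA sensors, enzymes and binding proteins that block viral RNA and translation, and brakes that switch the pathway off again. Many of them have a low level in unstimulated tissue that varies with the tonic release of interferon, and blood and marrow cells, which a dissected cochlea can hold, express them too.

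Summed counts ranged from 14295069 to 17696784 per sample. *Pou4f3* itself did not separate the genotypes, with 68, 72 and 88 counts in wildtype and 66, 97 and 52 counts in *Pou4f3(Δ/+)* samples, a log2 fold change of −0.06 ± 0.27 (SE), and the counts do not tell the mutant from the wildtype allele. All 12 hair cell markers were among the genes tested, at a mean of 3.72 to 3.89 log2 CPM (CPM, counts scaled to library size), while the 10 neutrophil markers, which the tissue label does not name, had means of 9.47 to 9.75 log2 CPM. The edgeR quasi-likelihood test called no gene at an adjusted p under 0.05 (0% of 17136 genes, smallest adjusted p 0.223), with 1309 genes at an unadjusted p under 0.05, and DESeq2 called 64 genes on the same counts.

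The members were lower in the *Pou4f3(Δ/+)* samples as a set. Their mean level was 5.76, 5.45 and 6.44 log2 CPM in wildtype and 5.16, 4.81 and 5.21 log2 CPM in *Pou4f3(Δ/+)* samples, so that the groups did not overlap, and the means were 5.89 ± 0.50 and 5.06 ± 0.21 log2 CPM (SD, n = 3 each). The difference of −0.83 compares with −0.01 for the mean over all genes tested. Together the 36 genes took 0.257%, 0.218% and 0.388% of all counts in wildtype and 0.195%, 0.156% and 0.187% in *Pou4f3(Δ/+)* samples.

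Of the 36 members, 35 had a log2 fold change below 0 (50.6% of all genes did), with a median of −0.83 and a range of −1.97 to 0.21. The edgeR test gave 30 members an unadjusted p under 0.05 in the lower direction (4.14% of all genes tested) and 0 in the higher direction (3.5% of all genes). In 20 members all 3 *Pou4f3(Δ/+)* values lay under the lowest wildtype value on log2 CPM (6.59% of all genes), and in 0 members did all 3 lie above the highest (6.07% of all genes). The difference was over 2-fold in 15 members (0.905% of all genes) and between 1.5-fold and 2-fold in 11 more. No member passed an adjusted p of 0.05 in the edgeR test (adjusted p 0.643 to 0.799), while DESeq2 called 5 members lower, namely *Usp18*, *Cmpk2*, *Oas1a*, *Oasl1* and *Zbp1* (0.199% of the 17108 genes to which it gave an adjusted p). Since the list was chosen with this contrast known, these shares describe it and are not evidence for it. In bulk tissue, fewer cells that express these genes and less RNA of them per cell cannot be told apart.

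**Figure D1:**
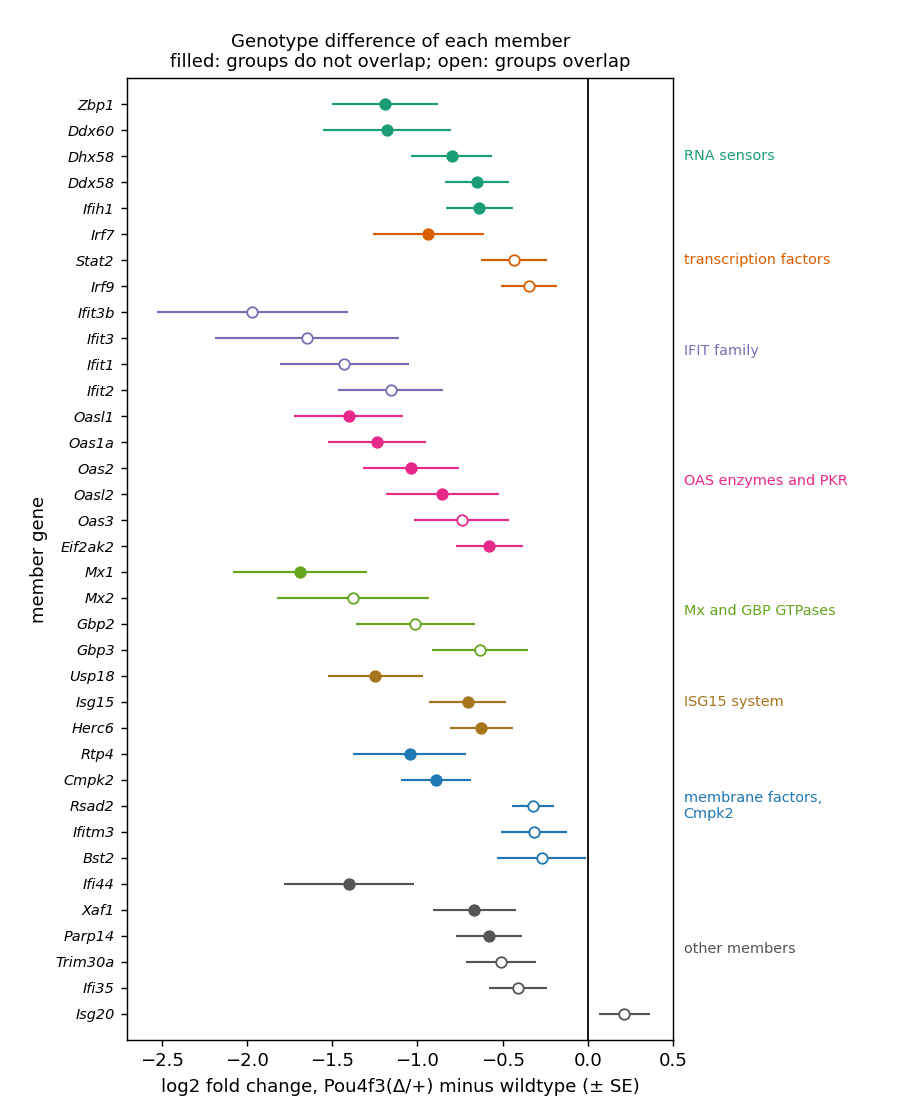
Log2 fold change of each of the 36 members, *Pou4f3(Δ/+)* minus wildtype, from the edgeR fit, with its SE as a bar, ordered by role. Filled points are the 20 members whose groups did not overlap and open points the 16 that did, and only *Isg20* lies to the right of 0.

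The single libraries did not contribute evenly. Wildtype replicate 5 had the highest level in 31 of the 36 members (86.1%, against 19.8% of all genes tested) and *Pou4f3(Δ/+)* replicate 2 the lowest in 26 (72.2%, against 22.9% of all genes). Wildtype replicate 3 was the highest in 4 members, *Ifit3*, *Ifit3b*, *Mx1* and *Mx2*, and *Pou4f3(Δ/+)* replicate 1 in *Isg20*. Without wildtype replicate 5 the difference of the set means was −0.55, the median log2 fold change of the members was −0.40, 34 members were still below 0, 21 had an unadjusted p under 0.05 in the lower direction (2.25% of all genes), and 20 had groups that did not overlap (9.97% of all genes). Leaving out each of the other samples in turn gave medians of −0.99 to −0.75.

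**Figure D2:**
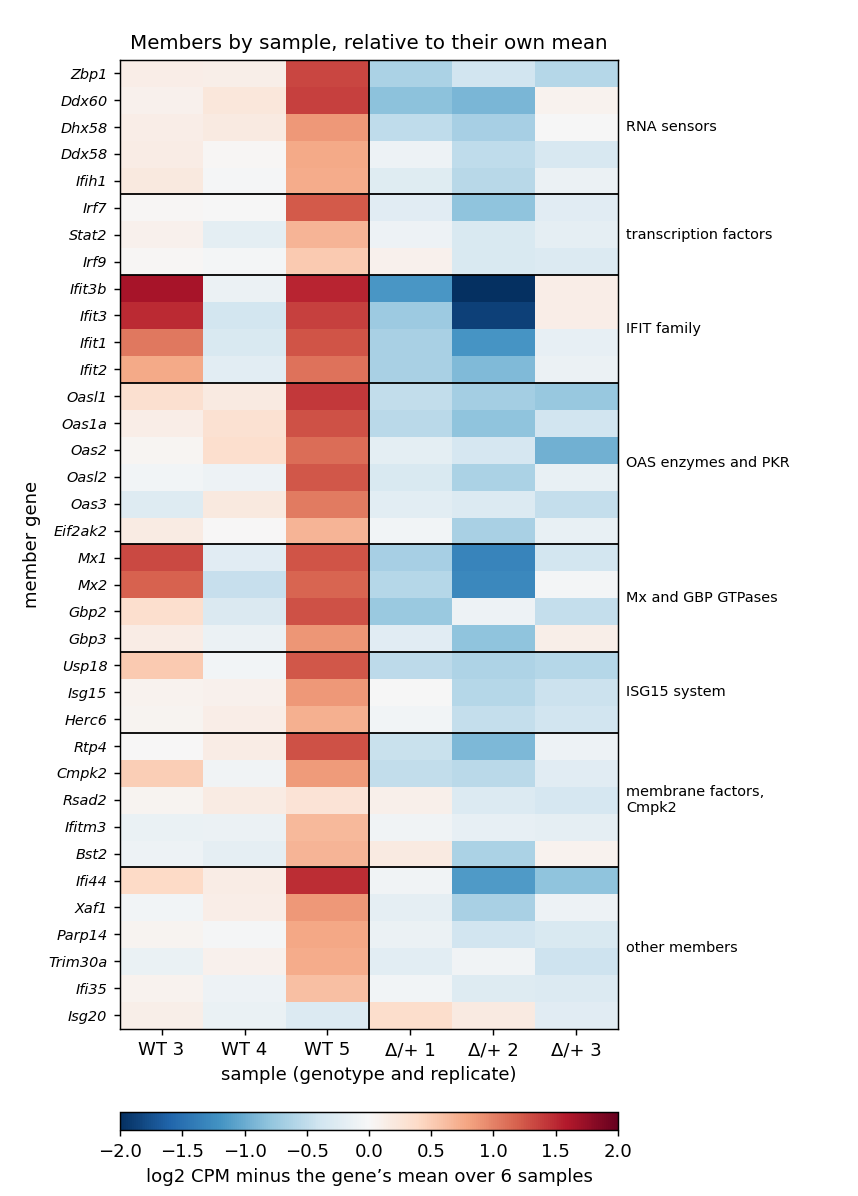
Log2 CPM of each member (rows, by role) in each of the 6 samples (columns), as the difference from that gene's mean over the samples, with red above and blue below the mean. Wildtype replicate 5 is red in all rows but *Isg20*, and the IFIT and Mx rows are also red in wildtype replicate 3.

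The RNA sensors recognise foreign or misplaced nucleic acid in the cytoplasm and start the interferon response, and interferon raises them in turn. All 5 were lower in the *Pou4f3(Δ/+)* samples without overlap on log2 CPM, with a median log2 fold change of −0.80. *Ddx58*, which encodes the sensor RIG-I, was at 29.6, 27.2 and 45.3 FPKM in wildtype and 25.6, 19.3 and 22.4 FPKM in *Pou4f3(Δ/+)* samples (log2 fold change ± SE throughout, −0.65 ± 0.19), where FPKM is a level scaled to transcript length and sequencing depth. *Ifih1*, which encodes the long double-stranded RNA sensor MDA5, was at 13.6, 11.2 and 20.1 FPKM in wildtype and 10.1, 8.10 and 11.4 FPKM in *Pou4f3(Δ/+)* samples (log2 fold change −0.64 ± 0.19). The highest *Pou4f3(Δ/+)* sample and the lowest wildtype sample of *Ifih1* were next to each other, and in FPKM the groups overlapped. *Dhx58*, for the regulator LGP2 of the same family, was at 9.77, 9.98 and 15.2 FPKM in wildtype and 5.89, 5.45 and 9.03 FPKM in *Pou4f3(Δ/+)* samples (log2 fold change −0.80 ± 0.24). *Zbp1*, a sensor of Z-form nucleic acid that can trigger cell death, was at 14.4, 13.6 and 30.2 FPKM in wildtype and 7.84, 9.96 and 9.88 FPKM in *Pou4f3(Δ/+)* samples (log2 fold change −1.19 ± 0.31). *Zbp1* was the sensor with the clearest gap, and the DESeq2 adjusted p was 0.00848. The helicase gene *Ddx60* was at 3.54, 3.77 and 8.04 FPKM in wildtype and 1.74, 1.60 and 3.47 FPKM in *Pou4f3(Δ/+)* samples (log2 fold change −1.18 ± 0.38), with *Pou4f3(Δ/+)* replicate 3 just under the wildtype replicates 3 and 4.

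Among the transcription factors, the difference was largest for *Irf7*, which drives the interferon alpha genes and is itself a target of interferon. *Irf7* was at 38.5, 36.9 and 85.8 FPKM in wildtype and 31.1, 19.9 and 32.8 FPKM in *Pou4f3(Δ/+)* samples (log2 fold change −0.94 ± 0.32), with no overlap between the groups, and wildtype replicate 5 stood at over 2-fold the other wildtype samples. *Stat2* was at 25.2, 21.3 and 36 FPKM in wildtype and 22.5, 17.6 and 21.1 FPKM in *Pou4f3(Δ/+)* samples (log2 fold change −0.43 ± 0.19). *Irf9* was at 43.9, 41.1 and 60.3 FPKM in wildtype and 45.6, 34.6 and 35.9 FPKM in *Pou4f3(Δ/+)* samples (log2 fold change −0.35 ± 0.16). *Stat2* and *Irf9* both overlapped between genotypes, with *Pou4f3(Δ/+)* replicate 1 above wildtype replicate 4, and their unadjusted p in the edgeR test was 0.051 and 0.065.

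The IFIT proteins bind the ends of foreign RNA and keep it from being translated. The 4 genes lie together on chromosome 19, between position 34550694, where *Ifit2* starts, and 34650009, where *Ifit1* ends (GRCm38, GENCODE M21). They had a median log2 fold change of −1.54, the lowest of the role groups, and yet the groups overlapped in all 4. *Ifit3b* was at 32.6, 9.65 and 29.7 FPKM in wildtype and 4.63, 2.48 and 11.6 FPKM in *Pou4f3(Δ/+)* samples (log2 fold change −1.97 ± 0.56). *Ifit3* was at 120.0, 33.6 and 110.0 FPKM in wildtype and 25.9, 11.5 and 47.7 FPKM in *Pou4f3(Δ/+)* samples (log2 fold change −1.65 ± 0.54). *Ifit1* was at 58.9, 23.3 and 68.1 FPKM in wildtype and 18.2, 12.3 and 25.8 FPKM in *Pou4f3(Δ/+)* samples (log2 fold change −1.43 ± 0.38). In each of these genes the wildtype replicates 3 and 5 were high, wildtype replicate 4 was below *Pou4f3(Δ/+)* replicate 3, and *Pou4f3(Δ/+)* replicate 2 was the lowest. *Ifit2* ordered the samples as *Ifit1* did, over 5.80 to 23.3 FPKM (log2 fold change −1.16 ± 0.31). *Ifit3* and *Ifit3b* are near copies, with 61.8% of the 31-base words of the *Ifit3* transcript also in *Ifit3b*, so how their reads were divided is uncertain. *Ifit3b* had 31.1, 32.9 and 31 counts per 100 of *Ifit3* in wildtype and 20.5, 24.7 and 27.8 in *Pou4f3(Δ/+)* samples.

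The promoters of these 3 genes, from RefSeq (GRCm38.p6), are shown because these genes are among those with the largest differences. Each runs from 250 bases before to 50 after the gene's RefSeq start, on the plus strand, and capitals mark each match to the interferon-stimulated response element, searched as GAAANNGAAA on both strands. *Ifit1* (chr19:34640639-34640938), *Ifit3* (chr19:34583279-34583578) and *Ifit3b* (chr19:34607707-34608006) hold 2 matches each:
Ifit1: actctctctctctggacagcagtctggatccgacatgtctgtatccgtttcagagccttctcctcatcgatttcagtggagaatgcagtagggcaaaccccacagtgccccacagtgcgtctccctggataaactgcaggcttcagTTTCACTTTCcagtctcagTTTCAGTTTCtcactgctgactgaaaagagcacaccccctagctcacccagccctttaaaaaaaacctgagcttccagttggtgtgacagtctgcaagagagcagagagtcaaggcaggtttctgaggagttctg
Ifit3: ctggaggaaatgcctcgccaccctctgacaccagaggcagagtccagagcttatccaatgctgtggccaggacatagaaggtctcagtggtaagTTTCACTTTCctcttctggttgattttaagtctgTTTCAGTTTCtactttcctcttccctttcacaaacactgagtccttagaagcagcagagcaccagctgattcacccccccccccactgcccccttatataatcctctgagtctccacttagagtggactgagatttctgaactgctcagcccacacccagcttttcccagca
Ifit3b: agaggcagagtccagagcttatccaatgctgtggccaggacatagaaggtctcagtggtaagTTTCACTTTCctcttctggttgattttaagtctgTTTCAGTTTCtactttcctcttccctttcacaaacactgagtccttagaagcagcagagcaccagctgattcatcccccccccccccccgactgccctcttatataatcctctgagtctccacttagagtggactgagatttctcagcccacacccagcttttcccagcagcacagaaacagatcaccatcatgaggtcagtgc
All 6 matches read on the opposite strand. The first match began 104 bases before the start in *Ifit1*, 156 before in *Ifit3* and 188 before in *Ifit3b*, and the letters of the first and of the second match were the same in the 3 genes.

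The oligoadenylate synthetases make the short second messenger that activates the ribonuclease RNase L, and the kinase PKR halts translation when it binds double-stranded RNA. The 6 genes had a median log2 fold change of −0.95, and the groups did not overlap in 5. *Oas1a* was at 9.31, 10.6 and 20.5 FPKM in wildtype and 5.85, 4.79 and 6.62 FPKM in *Pou4f3(Δ/+)* samples (log2 fold change −1.24 ± 0.29), and its DESeq2 adjusted p was 0.0033. The *Pou4f3(Δ/+)* samples of *Oas1a* lay close together, under all wildtype samples. *Oas1a* shares 68.7% of its 31-base words with *Oas1g*, which is no member and had 44, 67 and 149 counts in wildtype and 54, 25 and 28 counts in *Pou4f3(Δ/+)* samples. *Oas2* was at 13.8, 16.5 and 28.2 FPKM in wildtype and 11.3, 10.9 and 6.55 FPKM in *Pou4f3(Δ/+)* samples (log2 fold change −1.04 ± 0.28). *Oas3* spanned 12 to 30.9 FPKM (log2 fold change −0.74 ± 0.28) and overlapped, with wildtype replicate 3 as low as the *Pou4f3(Δ/+)* samples.

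The synthetase-like genes lie apart from the *Oas* genes on chromosome 5. *Oasl1*, whose product limits the translation of *Irf7* in mice, was at 5.47, 5.43 and 12.9 FPKM in wildtype and 3.48, 3.04 and 2.73 FPKM in *Pou4f3(Δ/+)* samples (log2 fold change −1.40 ± 0.32), and its DESeq2 adjusted p was 0.0033. *Oasl2* was at 41.4, 41.6 and 100.1 FPKM in wildtype and 35.3, 28.1 and 39.9 FPKM in *Pou4f3(Δ/+)* samples (log2 fold change −0.85 ± 0.33). In both genes wildtype replicate 5 was over 2-fold above the other wildtype samples, and in *Oasl2* the remaining 5 samples lay between 28.1 and 41.6 FPKM. *Eif2ak2*, which encodes PKR, was at 23, 20.9 and 32.5 FPKM in wildtype and 20.8, 13.1 and 19.9 FPKM in *Pou4f3(Δ/+)* samples (log2 fold change −0.58 ± 0.20), and the lowest wildtype and the highest *Pou4f3(Δ/+)* sample were nearly level.

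The Mx proteins are GTPases that trap viral particles, and C57BL/6 mice, like most laboratory strains, carry defective alleles of both genes. *Mx1* was at 13.1, 4.52 and 12.4 FPKM in wildtype and 3.25, 2.01 and 4.11 FPKM in *Pou4f3(Δ/+)* samples (log2 fold change −1.69 ± 0.39). *Mx1* was the one gene of this group without overlap, although wildtype replicate 4 was close to *Pou4f3(Δ/+)* replicate 3. *Mx2* spanned 1.28 to 9.81 FPKM (log2 fold change −1.38 ± 0.45), and as in the IFIT genes the wildtype replicates 3 and 5 were high and wildtype replicate 4 was below *Pou4f3(Δ/+)* replicate 3. In wildtype the transcript with the most FPKM was annotated as subject to nonsense-mediated decay for *Mx1* (63.1% of the gene's FPKM) and as a polymorphic pseudogene for *Mx2* (62.3%). The guanylate-binding protein genes *Gbp2* and *Gbp3*, which interferon gamma also induces, spanned 7.84 to 31.7 and 9.29 to 30.8 FPKM (log2 fold change −1.01 ± 0.35 and −0.63 ± 0.28), and both overlapped.

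Isg15 is a ubiquitin-like protein that is attached to other proteins, in mice by the ligase Herc6, and that Usp18 takes off again. All 3 genes were lower without overlap, with a median log2 fold change of −0.71. *Isg15* was at 77, 79.5 and 134 FPKM in wildtype and 73.4, 49 and 56 FPKM in *Pou4f3(Δ/+)* samples (log2 fold change −0.71 ± 0.23). *Herc6* was at 11.4, 13.1 and 15.6 FPKM in wildtype and 10.01, 7.09 and 7.43 FPKM in *Pou4f3(Δ/+)* samples (log2 fold change −0.63 ± 0.18). In both, *Pou4f3(Δ/+)* replicate 1 was close to the lowest wildtype sample. *Usp18*, which also blocks the receptor and so damps the response, was at 15.6, 10.7 and 25.8 FPKM in wildtype and 7.58, 7.73 and 7.62 FPKM in *Pou4f3(Δ/+)* samples (log2 fold change −1.25 ± 0.28). The *Pou4f3(Δ/+)* samples of *Usp18* lay between 7.58 and 7.73 FPKM, while the wildtype samples spread over 2-fold, and its DESeq2 adjusted p of 0.00227 was the smallest among the members.

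The promoter of *Isg15* (RefSeq GRCm38.p6, chr4:156200769-156201068, minus strand, printed in the direction of transcription) is shown because its 3 matches overlap in 1 run, starting 78 bases before the gene's start:
Isg15: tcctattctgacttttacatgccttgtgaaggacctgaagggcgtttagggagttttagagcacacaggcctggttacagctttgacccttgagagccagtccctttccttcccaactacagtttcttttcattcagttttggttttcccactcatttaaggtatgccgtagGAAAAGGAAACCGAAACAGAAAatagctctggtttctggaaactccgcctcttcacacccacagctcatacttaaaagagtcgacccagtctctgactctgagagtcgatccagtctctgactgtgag

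The membrane-associated factors and their neighbours were the role group with the smallest differences, with a median log2 fold change of −0.32. *Ifitm3*, which keeps viruses from fusing with the cell's membranes, had the highest level of all members, at 219, 227 and 379.9 FPKM in wildtype and 232, 214 and 219 FPKM in *Pou4f3(Δ/+)* samples (log2 fold change −0.32 ± 0.19). Only wildtype replicate 5 stood out, and the other 5 samples lay between 214 and 232 FPKM. *Bst2*, the tether that holds budding virus at the surface, was at 53.7, 52 and 92.5 FPKM in wildtype and 66.2, 36.8 and 61.7 FPKM in *Pou4f3(Δ/+)* samples (log2 fold change −0.27 ± 0.26), and it was the one member whose log2 fold change turned positive without wildtype replicate 5 (0.05). *Rtp4*, a chaperone that brings some receptors to the cell surface, was at 30.1, 34 and 72.7 FPKM in wildtype and 22.5, 15.7 and 29.4 FPKM in *Pou4f3(Δ/+)* samples (log2 fold change −1.04 ± 0.33), with no overlap, and 13.9% of its exon bases overlap another annotated gene.

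*Rsad2* and *Cmpk2* are neighbours that point away from each other on chromosome 12 and act together, since Cmpk2 makes the nucleotide that the product of *Rsad2*, viperin, turns into a terminator of viral RNA. *Rsad2* was at 71.8, 78.9 and 83.4 FPKM in wildtype and 74.5, 57 and 56 FPKM in *Pou4f3(Δ/+)* samples (log2 fold change −0.32 ± 0.12). *Cmpk2* was at 31.9, 21.9 and 40.9 FPKM in wildtype and 16.2, 15.4 and 19.7 FPKM in *Pou4f3(Δ/+)* samples (log2 fold change −0.89 ± 0.20), and its DESeq2 adjusted p was 0.00325. *Rsad2* had the narrowest range over the 6 samples of all members, 0.61 on the log2 scale, and overlapped between genotypes, while *Cmpk2* ranged over 1.39 and did not. The difference between these neighbours was not tested.

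Of the other members, *Ifi44* had the largest difference, at 6.06, 4.87 and 12.2 FPKM in wildtype and 4.18, 1.87 and 2.56 FPKM in *Pou4f3(Δ/+)* samples (log2 fold change −1.40 ± 0.38). *Xaf1*, which binds an inhibitor of cell death, was at 18.7, 22 and 33.3 FPKM in wildtype and 15.8, 11.9 and 17.3 FPKM in *Pou4f3(Δ/+)* samples (log2 fold change −0.67 ± 0.24). *Parp14*, an ADP-ribosyltransferase, was at 17.8, 16.8 and 28.8 FPKM in wildtype and 15.7, 13.2 and 14 FPKM in *Pou4f3(Δ/+)* samples (log2 fold change −0.58 ± 0.19). In these 3 genes the groups did not overlap, and wildtype replicate 5 was the highest sample. *Trim30a*, a ubiquitin ligase family member, and *Ifi35* spanned 20.2 to 44.6 and 24.9 to 45.8 FPKM and overlapped (log2 fold change −0.51 ± 0.21 and −0.41 ± 0.17), and 16.8% of the exon bases of *Ifi35* overlap another annotated gene.

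*Isg20*, an exonuclease for single-stranded RNA, was the one member above 0. It was at 88.4, 75.9 and 67.1 FPKM in wildtype and 108, 93.4 and 72.8 FPKM in *Pou4f3(Δ/+)* samples (log2 fold change 0.21 ± 0.15), and its unadjusted p in the edgeR test was 0.19. In *Isg20* alone, wildtype replicate 5 was the lowest of the 6 samples and *Pou4f3(Δ/+)* replicate 1 the highest. The 9 B cell markers, which were also higher in the *Pou4f3(Δ/+)* samples, had means of 4.64, 4.81 and 4.48 log2 CPM in wildtype and 5.61, 5.73 and 4.92 log2 CPM in *Pou4f3(Δ/+)* samples, and their part in the level of *Isg20* was not tested. The promoter of *Isg20* (RefSeq GRCm38.p6, chr7:78913174-78913473, plus strand) is shown as one with no match in this window:
Isg20: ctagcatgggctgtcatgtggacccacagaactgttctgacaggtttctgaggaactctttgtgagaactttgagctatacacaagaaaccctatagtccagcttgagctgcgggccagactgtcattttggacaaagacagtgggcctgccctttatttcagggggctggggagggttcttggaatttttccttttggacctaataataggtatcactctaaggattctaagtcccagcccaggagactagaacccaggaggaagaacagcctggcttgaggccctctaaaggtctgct

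**Figure D3:**
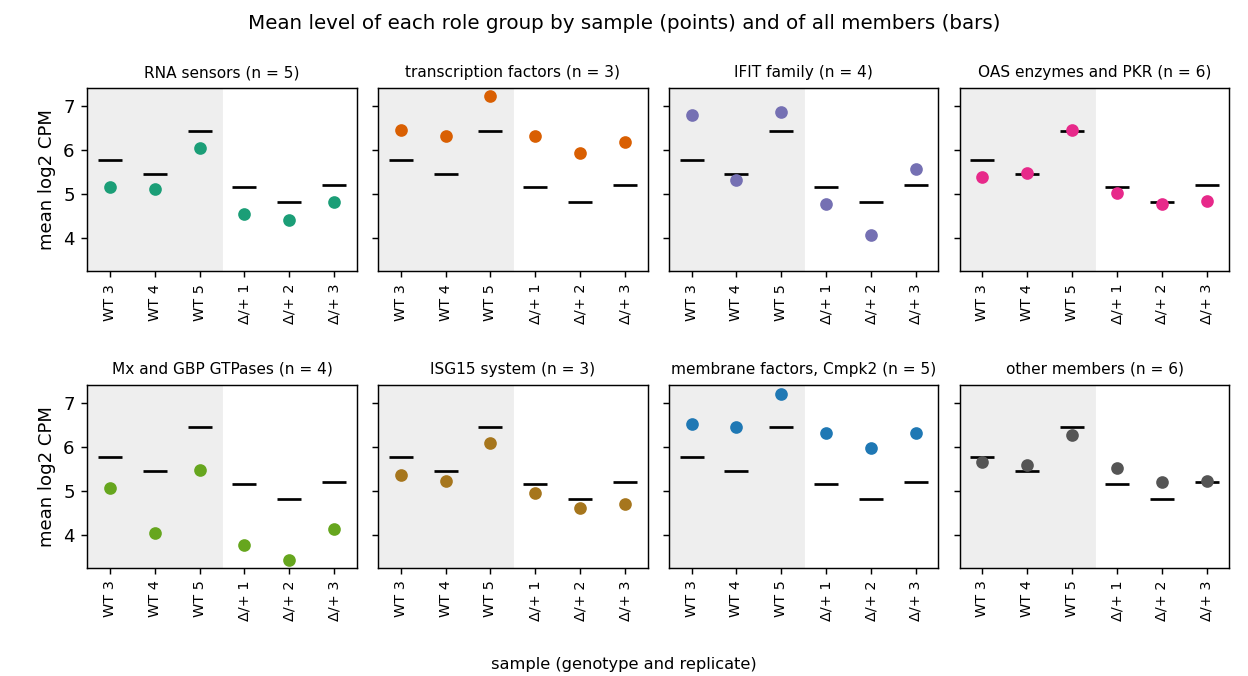
Mean log2 CPM of each role group in each sample (coloured points; wildtype on grey) with the mean of all 36 members in that sample as a black bar. The IFIT and the Mx and GBP panels show wildtype replicates 3 and 5 above the other samples, at 6.80 and 6.87 log2 CPM for the IFIT group against 5.31 in wildtype replicate 4, whereas in the other panels wildtype replicate 5 is the highest and replicates 3 and 4 are close.

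Within the wildtype group the members followed 2 patterns. *Ifit1*, *Ifit3*, *Ifit3b*, *Mx1* and *Mx2* were over 2-fold higher in wildtype replicate 3 than in replicate 4, by 1.36 to 1.85 on the log2 scale, and their level in replicate 5 differed from that in replicate 3 by −0.13 to 0.21. In 15 members, among them all the genes just named and *Ifit2*, *Gbp2* and *Usp18*, wildtype replicate 5 was over 2-fold above replicate 4. In 12 members replicate 3 was below replicate 4, down to −0.46 for *Oas3*. *Ifit2*, *Gbp2*, *Usp18* and *Cmpk2* lay between these patterns, with replicate 3 above replicate 4 by 0.96, 0.61, 0.57 and 0.56.

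**Figure D4:**
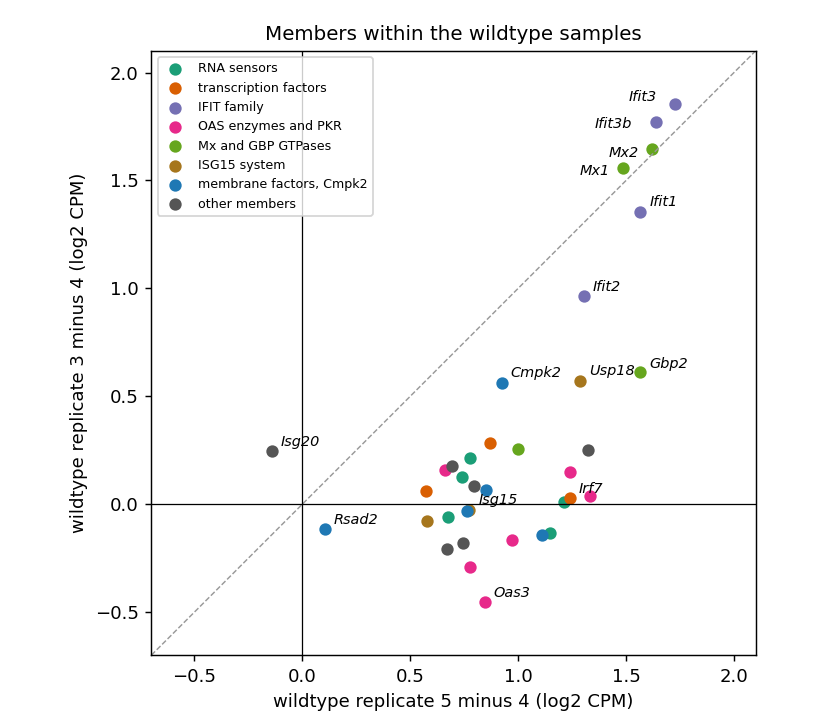
Difference in log2 CPM of wildtype replicate 3 (vertical axis) and of wildtype replicate 5 (horizontal axis) from wildtype replicate 4 for each of the 36 members, coloured by role, with the dashed line marking equal differences. *Ifit1*, *Ifit3*, *Ifit3b*, *Mx1* and *Mx2* lie near the line, while most members lie below it, close to 0 on the vertical axis.

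The members also varied more than other genes. The SD of log2 CPM was larger in wildtype than in *Pou4f3(Δ/+)* samples for 33 of 36 members, against 41.4% of all genes tested. Its median over the members was 0.535 in wildtype and 0.290 in *Pou4f3(Δ/+)* samples, and over all genes it was 0.134 and 0.164. The median biological coefficient of variation in the edgeR fit was 0.238 for the members and 0.106 for the 11096 genes in the same range of mean counts.

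The ligands that start the response were nearly undetected. None of the 20 type I and type III interferon genes listed had enough counts to be tested, and the counts found were 1 of *Ifna2* and 2 of *Ifna5* in *Pou4f3(Δ/+)* replicate 1, 1 of *Ifnz* in *Pou4f3(Δ/+)* replicate 2, and for *Ifnk* 3 in wildtype replicate 4 and 1 in *Pou4f3(Δ/+)* replicate 1. A difference in their level was not detectable at this depth. The receptor genes had means (± SD, n = 3 each) of 25.8 ± 0.88 against 25.3 ± 1.33 FPKM for *Ifnar1* and 49.2 ± 1.14 against 46.3 ± 2.69 FPKM for *Ifnar2* in wildtype against *Pou4f3(Δ/+)* samples, and log2 fold changes of −0.01 ± 0.07 and −0.04 ± 0.07.

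The 3 lists that follow hold no member, so *Irf7*, *Irf9*, *Stat2*, the RNA sensors among the members and *Usp18* are not in them. The median log2 fold change was −0.43 for the member factors and −0.80 for the member sensors, and *Usp18* was at −1.25. The 10 other genes for the receptor, its kinases and its factors had a median log2 fold change of 0.04. The one gene of this list that was higher at an unadjusted p under 0.05 was *Irf8*, a factor of myeloid and B cells, at 30.4, 27.8 and 28.8 FPKM in wildtype and 29.5, 41.2 and 35 FPKM in *Pou4f3(Δ/+)* samples (0.29 ± 0.12), and its groups overlapped. The 16 nucleic acid sensors and adaptors upstream of interferon had a median of 0.02, with 2 lower at an unadjusted p under 0.05, *Tlr3* (−0.45 ± 0.17) and *Adar* (−0.31 ± 0.13), which both can be induced by interferon. The 10 brakes on interferon signalling had a median of 0.12, with *Trex1* (−0.51 ± 0.16) and *Adar* lower and *Isg20l2* (0.29 ± 0.12), whose product is known for processing ribosomal RNA and not as a brake, higher at an unadjusted p under 0.05. In these 3 lists neither edgeR nor DESeq2 called a gene at an adjusted p under 0.05.

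Of the 54 interferon-stimulated genes tested outside the members, 51 had a log2 fold change below 0 (50.6% of all genes), 21 had an unadjusted p under 0.05 in the lower direction (4.14% of all genes) and 0 in the higher (3.5%), and 19 had groups that did not overlap, all lower (6.59% of all genes). Their median was −0.36, and wildtype replicate 5 was the highest sample in 51 (19.8% of all genes). *Cxcl10*, a chemokine that attracts T cells, was at 34.7, 2.83 and 25.1 FPKM in wildtype and 2.25, 2.75 and 1.99 FPKM in *Pou4f3(Δ/+)* samples (−3.19 ± 0.72), with the wildtype replicates 3 and 5 far above the other 4 samples. *Rnf213* was at 42.3, 42.6 and 77.6 FPKM in wildtype and 31.5, 26.7 and 32.6 FPKM in *Pou4f3(Δ/+)* samples (−0.76 ± 0.21). *Slfn9* (−0.73 ± 0.17) and *Ifi213* (−1.31 ± 0.33) also did not overlap, and the edgeR test called 0 and DESeq2 3 genes of this list at an adjusted p under 0.05.

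Of the 28 genes best known as targets of interferon gamma, 22 were below 0 (50.6% of all genes), 10 had an unadjusted p under 0.05 in the lower direction (4.14%) and 0 in the higher (3.5%), and their median was −0.35. *Iigp1*, an immunity-related GTPase, was at 24.8, 9.89 and 31.9 FPKM in wildtype and 6.02, 7.86 and 9.0 FPKM in *Pou4f3(Δ/+)* samples (−1.55 ± 0.37). *Tgtp1*, of the same family, was at 6.75, 1.96 and 6.34 FPKM in wildtype and 1.87, 1.79 and 1.96 FPKM in *Pou4f3(Δ/+)* samples (−1.68 ± 0.41). Both were, like *Cxcl10*, high in the wildtype replicates 3 and 5 and low in the other 4 samples. *Irgm2* (−0.76 ± 0.19) and *Gbp7* (−0.64 ± 0.18) did not overlap between genotypes either, and edgeR called 0 and DESeq2 2 genes of this list. Without wildtype replicate 5 the median was −0.16 for the other interferon-stimulated genes and −0.16 for the interferon gamma targets. Both lists were drawn up with earlier results of these samples known and read the same contrast as the members.

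**Figure D5:**
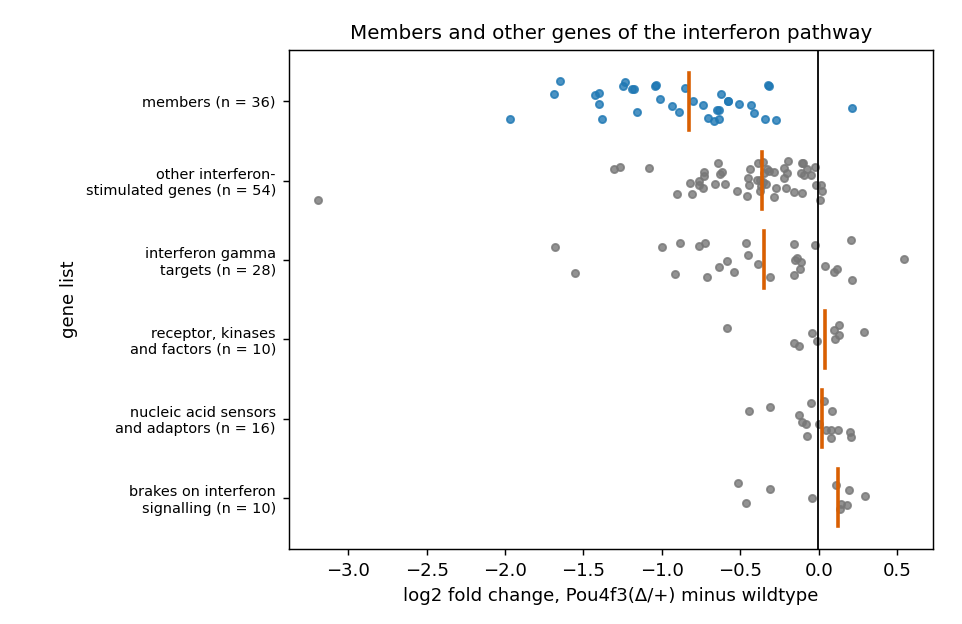
Log2 fold change of each tested gene (points, spread vertically only to separate them), *Pou4f3(Δ/+)* minus wildtype, for the members and 5 other lists of the interferon pathway, with the list's median as an orange line and the median of all genes tested as the black line. The members (median −0.83), the other interferon-stimulated genes (−0.36) and the interferon gamma targets (−0.35) lie mostly left of 0. The 3 lists of signalling genes, which leave out the members of those roles, lie around 0 (0.04, 0.02 and 0.12).

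Markers of other cells also moved with the genotype or with single samples. For comparison, 3.5% of all genes tested were higher and 4.14% lower at an unadjusted p under 0.05 in the edgeR test. Groups did not overlap in 6.07% of all genes in the higher direction and in 6.59% in the lower. DESeq2 called 64 of the 17108 genes to which it gave an adjusted p. All 9 B cell markers had log2 fold changes above 0, 8 with an unadjusted p under 0.05 and 4 called by DESeq2. Of the 10 T and natural killer cell markers 9 were above 0, 4 with an unadjusted p under 0.05 and 1 called by DESeq2, with means of 1.43 to 1.69 log2 CPM in wildtype and 1.41 to 2.93 log2 CPM in *Pou4f3(Δ/+)* samples. The 12 macrophage markers had means of 6.87 to 7.03 and 6.94 to 7.15 log2 CPM. Their median log2 fold change was 0.06, with 4 below 0 and 8 above, and 1 was lower and 2 higher at an unadjusted p under 0.05. The lower one was *Ly6c2* (−0.36 ± 0.16), and its groups overlapped. The higher ones, *Cd163* (0.93 ± 0.21, DESeq2 adjusted p 0.0034) and *Cx3cr1* (0.47 ± 0.13), did not overlap and were named after their values were seen. The 8 markers of plasmacytoid dendritic cells, which make much interferon, had means of 3.41 to 3.57 and 3.83 to 3.85 log2 CPM. Of these, 5 had log2 fold changes above 0 and 3 below. The 3 higher at an unadjusted p under 0.05, all without overlap, were *Siglech*, *Klk1* and *Cox6a2*. *Klk1* had only 5, 8 and 13 counts in wildtype and 22, 21 and 20 in *Pou4f3(Δ/+)* samples. *Cox6a2* had only 16, 15 and 15 counts in wildtype and 32, 25 and 28 in *Pou4f3(Δ/+)* samples. The 10 neutrophil markers had means of 9.55 to 9.74 and 9.47 to 9.75 log2 CPM, with 1 lower at an unadjusted p under 0.05. The 9 erythroid markers all had log2 fold changes above 0, 2 with an unadjusted p under 0.05, with means of 8.66 to 9.07 and 8.89 to 9.43 log2 CPM and 1 gene called by DESeq2. The 8 endothelial markers had the highest mean in wildtype replicate 5, at 5.78 log2 CPM against 5.59 to 5.64 in the other 5 samples. Of the 12 markers of the lateral wall, supporting cells and tectorial membrane, 8 had log2 fold changes below 0 and 4 above. Their median was −0.18, and 2 were lower at an unadjusted p under 0.05 and did not overlap. These 2 were the potassium channel genes *Kcne1* (−0.84 ± 0.24, DESeq2 adjusted p 0.036) and *Kcnq1* (−0.45 ± 0.13), which were chosen after their values were seen. Of the 10 bone markers 3 and of the 7 Schwann cell and myelin markers 1 were lower at an unadjusted p under 0.05, and 0 of either list higher. The mitochondrial share of counts was 4.30% to 4.54% in wildtype and 3.84% to 4.26% in *Pou4f3(Δ/+)* samples. The part of cell composition in the members' levels was not tested.

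As known interferon-stimulated genes, the members shared the annotation and promoter letters that go with that choice, and the shares describe the list. The deposited annotation placed 25 of the 36 under defense response to virus, a term carried by 0.753% of the genes tested, and 20 under innate immune response (1.79% of the genes tested). They lie on 14 chromosomes, with 5 oligoadenylate synthetase genes on chromosome 5 and the 4 IFIT genes on chromosome 19. Promoter windows from RefSeq were at hand for 28 members, and GAAANNGAAA on either strand was in those of 17 (60.7%), against 3.99% of the 27025 genes with a window. The median log2 fold change was −0.65 for the 17 members with a match and −0.85 for the 11 without. TTCNNNGAA, the gamma-activated sequence of interferon gamma targets, was in 7 of the 28 (25%), against 9.55% of all genes. The windows of *Oas2*, *Mx1*, *Mx2*, *Usp18*, *Dhx58*, *Rtp4*, *Zbp1* and *Parp14* were not examined.

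At the level of transcripts, 159 transcripts were listed for the members, and in 29 members the same transcript had the highest FPKM in all 6 samples. The top wildtype transcript had a lower mean FPKM in *Pou4f3(Δ/+)* samples in 35 members, all but *Isg20*. It was protein coding in 33, and the exceptions were *Mx1*, *Mx2* and *Oasl2*, whose top transcript is annotated as subject to nonsense-mediated decay (54.1% of the gene's FPKM in wildtype).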

How the data were processed

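Cochlear RNA of 3 wildtype and 3 *Pou4f3(Δ/+)* samples was isolated with poly(A) selection or ribosomal RNA removal (the methods name both) and sequenced on an Illumina HiSeq instrument. The authors deposited, per sample and transcript, expected counts, estimated by their counting program and left without normalization, and FPKM values, which are relative to transcript length and sequencing depth. The deposited files also list a length and gene ontology terms per transcript. The submitters' processing notes name the mm8 build and DESeq2, while 99.5% of the listed transcripts are in GENCODE M21 (GRCm38), which was used for positions, and the counting program is not given in the sources used here. Whether reads were counted by strand is not given either, so overlapping genes on opposite strands cannot be told apart.

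Expected counts were summed per gene symbol and rounded. Genes passing filterByExpr (minimum count 10, minimum total count 15) were tested with the quasi-likelihood test of edgeR 4.0.16 (R 4.3.3) with TMM scaling over all 6 samples, without covariates, and p-values were adjusted by Benjamini-Hochberg over all 17136 genes. SE was taken from the fold change and its F statistic (log2 fold change over √F). Log2 CPM used a prior count of 2. Promoters came from RefSeq (GRCm38.p6). Shared sequence was counted as 31-base words. The scripts were tested on simulated data. The alternatives were DESeq2 1.42.0, its size factors or library totals alone in edgeR, no filter, limma 3.58.1 (limma-trend) on log2(FPKM + pseudocount) with pseudocounts of 0.1, 0.5 and 1, other summaries of the set mean, and each sample left out in turn. The count of members whose groups did not overlap was recomputed with each sample left out and in other units after the data were seen.

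Summed counts of 14295069 to 17696784 per sample set the precision, and the members' mean counts were 149 to 4299.5. The members and all gene lists were chosen with earlier results of these data known. Any member could be named, with values in every sample for the 5 with the largest fitted change, the 5 with the highest mean FPKM, those whose groups did not overlap and the 3 transcription factors. Other interferon genes were named where the unadjusted p was under 0.05, at most 4 per list, with *Ifnar1*, *Ifnar2* and any ligand with a count. One such gene is not reported here. *Oas1g* was named for its shared sequence.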

Additional observations from a re-analysis of the deposited data

How the results depend on the processing

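The number of genes called at an adjusted p under 0.05 over all genes tested was 0 in the edgeR test, 64 with DESeq2, 9 without a filter, 1 with limma-trend on log2(FPKM + 0.1), and 0 to 193 with each sample left out, the highest without *Pou4f3(Δ/+)* replicate 3 and 3 without wildtype replicate 4. The number of members called was 0 in the edgeR test and with limma-trend, and 5 with DESeq2. Of the other interferon-stimulated genes 3 were called with DESeq2, 1 without a filter and 0 to 1 with a sample left out, and of the interferon gamma targets 2 with DESeq2 and 0 to 2 with a sample left out, in both lists the highest without wildtype replicate 4. The cause of these differences between tools was not tested. The members' median log2 fold change was −0.99 to −0.40 with a sample left out, the value nearest 0 coming without wildtype replicate 5, and the difference of the set means was −1.04 to −0.55. The difference of the set means was −0.83 to −0.68 under the other scalings, units and summaries. The medians of the nucleic acid sensors and adaptors (−0.072 to 0.046) and of the brakes (−0.042 to 0.16) changed sign with a sample left out, at their lowest without *Pou4f3(Δ/+)* replicate 2. Of 468 values of single members under 13 alternatives, 462 kept their direction and their side of the threshold, 5 passed it with DESeq2, and 1 changed sign, that of *Bst2* without wildtype replicate 5 (0.055, over a range of −0.43 to 0.055 with a sample left out). The count of members whose groups did not overlap was 20 to 29 with a sample left out, while the share of all genes without overlap in that direction rose from 6.59% to between 9.97% and 18.9%, and the count was 19 or 20 under other scalings and in FPKM. No paired analysis was possible because the genotypes share only the replicate number 3. With 3 samples per genotype, wildtype replicate 5 high in most members and a spread between wildtype samples wider than for other genes, the size of the genotype difference is poorly fixed by these data. Levels of the interferon genes themselves were below what this depth can compare.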
